A study of Mus musculus with 21 samples.

Results

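The sirtuins are the 7 genes Sirt1 to Sirt7, taken by name from the table of gene counts, and all 7 were among its 16318 genes. SAMP8 mice, a naturally occurring line that shows memory deficits and early ageing, received HsTX1[R14A], a peptide that blocks Kv1.3, a voltage-gated channel for potassium, or its vehicle PBS. Dosing was subcutaneous, at 1 mg/kg on alternate days for 8 weeks from 4 months of age, and whole brains were taken at 6 months. The PBS group held 12 mice (6 female, 6 male) and the HsTX1[R14A] group held 9 (3 female, 6 male), each mouse giving 1 library of whole-brain RNA. Mice of the resistant strain SAMR1 were not analysed here, so all values describe SAMP8 brain. In whole-brain RNA, fewer cells of a type and less RNA per cell cannot be told apart.

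Sirtuins are enzymes that remove acetyl and other acyl groups from lysine residues and consume NAD+ in each reaction, a need that ties their activity to the energy state of the cell. Sirt1, Sirt6 and Sirt7 act mainly in the nucleus, Sirt2 mainly in the cytosol, and Sirt3, Sirt4 and Sirt5 in mitochondria. In the brain, Sirt2 is known as a protein of oligodendrocytes and myelin, Sirt1 as a regulator of neuronal plasticity and stress responses, and Sirt3 as the main deacetylase of mitochondria. The question addressed here is whether the mRNA of any sirtuin differed between HsTX1[R14A]-treated and PBS-treated SAMP8 mice.

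No sirtuin passed the test for treatment (0 of 7). Over all genes the same test called 31.6% (5144 of 16303), with 2526 genes (15.5%) higher and 2618 (16.1%) lower after HsTX1[R14A]. The test was edgeR's quasi-likelihood test with sex in the model. A gene was called where its p, adjusted by Benjamini and Hochberg's method over the 16303 genes that passed the filter on low counts, was no higher than 0.05, and all 7 sirtuins passed that filter. At an unadjusted p under 0.05 in this fit, only Sirt3 passed among the sirtuins, against 7562 of all genes. The median absolute log2 fold change was 0.07 over the 7 sirtuins and 0.23 over all genes. The number of genes called moved with single mice, falling to 2288 without PBS mouse 90, 3006 without HsTX1[R14A] mouse 98, 3121 without mouse 88, 3263 without mouse 81 and 3337 without mouse 71.

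Library totals ran from 14917174 to 47613792 counts, and the sirtuin with fewest reads, Sirt5, had 68 to 265 counts per mouse. Markers of neurons (12 genes), astrocytes (10), oligodendrocytes (15), microglia (11) and endothelium (9) were above 0 in every library. Libraries differed in name form and in a length trend. The column names of the count table came in a longer form for 10 PBS and 5 HsTX1[R14A] mice and a shorter form for 2 and 4, and what the forms stand for is not given in the sources used here. CPM stands for counts scaled to a common library size. The libraries also differed in length slope, the slope over genes of log2 CPM on log2 transcript length relative to the mean library, where a positive value means relatively more counts on long transcripts. The length slope was -0.0763 ± 0.161 (SD, n = 12) in PBS and 0.102 ± 0.119 (SD, n = 9) in HsTX1[R14A] mice.

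**Figure D1:**
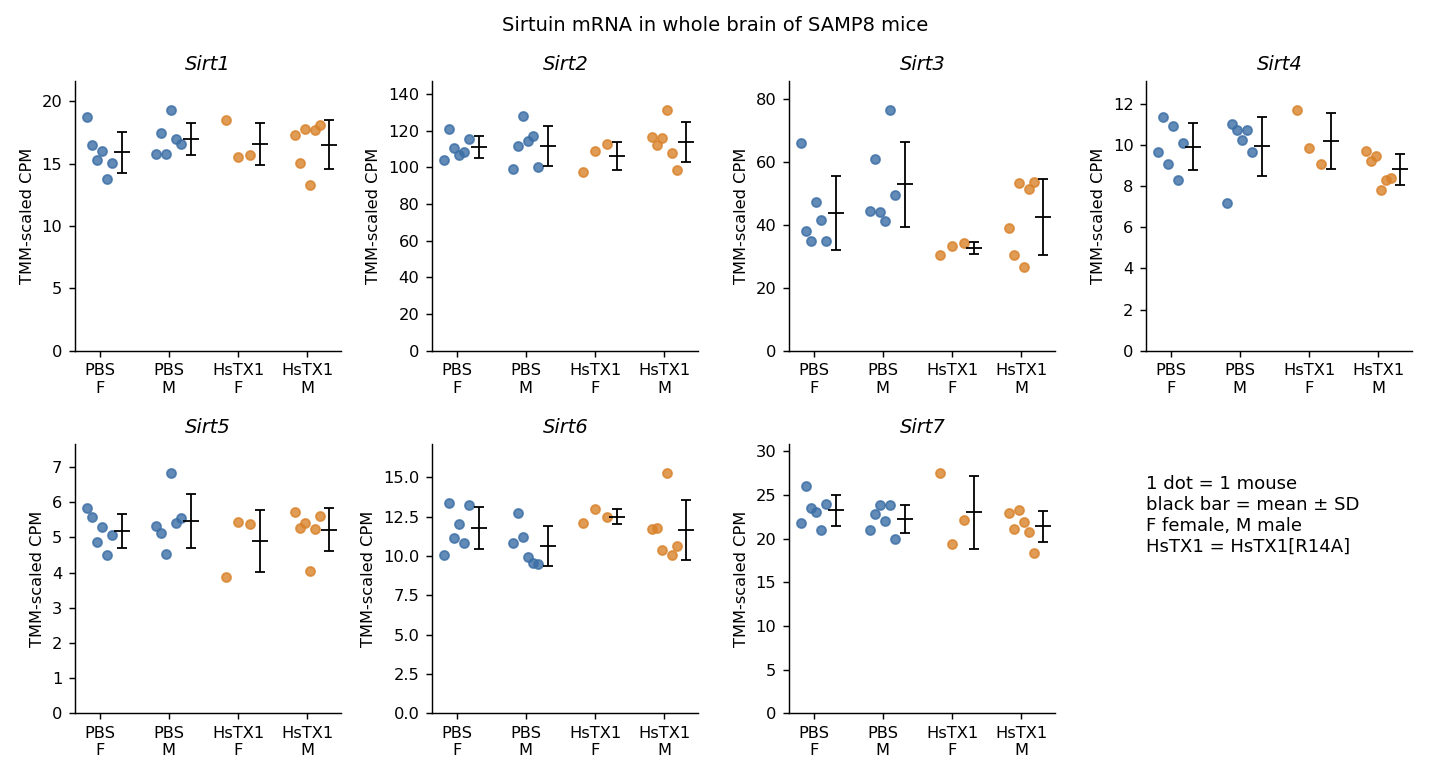
TMM-scaled CPM (counts scaled to a common library size, vertical axes from 0) of each sirtuin in each mouse, by treatment and sex, where each dot is 1 mouse and black bars give the mean and SD. The PBS and HsTX1[R14A] mice of both sexes together overlapped for all 7 genes. For Sirt3, which ran from 26.7 to 76.5 CPM, the highest treated female (34.2 CPM) lay just below the lowest PBS female (34.8 CPM).

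Levels of different sirtuins were compared as CPM, scaled by the trimmed mean of M values (TMM), per kilobase of the longest annotated transcript. On this scale Sirt2 was the highest sirtuin in every mouse, at 52.6 ± 4.25 (SD, n = 21), and made up 58.1% ± 3.27 of the summed level of the 7 genes. Sirt3 followed at 13.8 ± 3.96, and it too was above the next gene in 21 of 21 mice. Sirt7 (6.84 ± 0.647), Sirt6 (6.09 ± 0.784) and Sirt4 (5.37 ± 0.672) lay close together. Sirt7 was above Sirt6 in 18 of 21 mice and Sirt6 above Sirt4 in 15 of 21, so the order of these neighbours was not the same in each mouse. Sirt1, at 3.72 ± 0.358, and Sirt5, at 2.16 ± 0.263, were the lowest, each in its place in 21 of 21 mice.

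**Figure D2:**
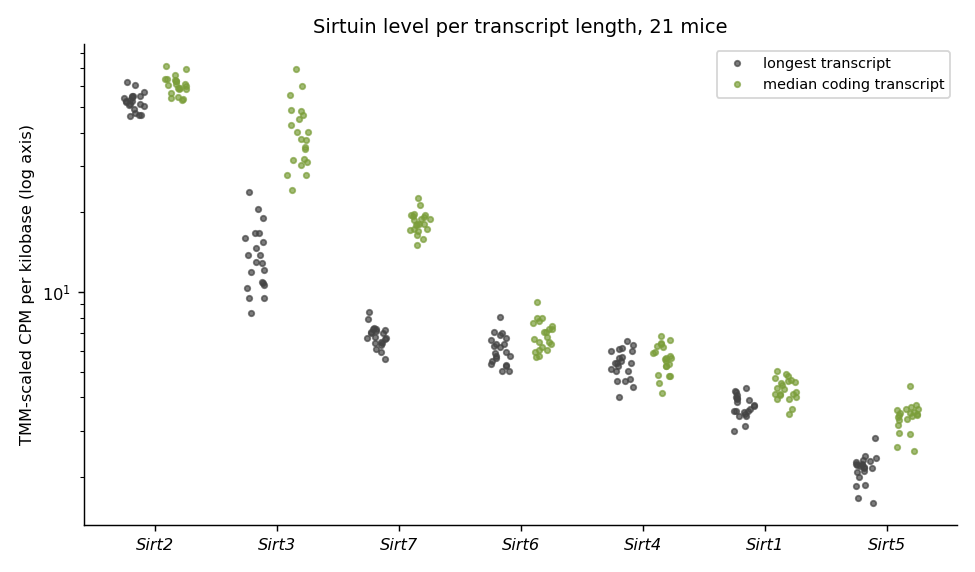
Level of each sirtuin per kilobase in the 21 mice (log axis, TMM-scaled CPM per kilobase), divided by the length of the longest transcript (grey) or by the median length of the coding transcripts (green). Sirt2 stands highest and Sirt5 lowest on both scales, and Sirt3 and Sirt7 move most between them.

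The order held, but the distances did not, when each gene was divided by the median length of its coding transcripts. Sirt3 then reached 40.3 ± 11.5 (SD, n = 21), since its coding transcripts have a median of 1100 bases and its longest transcript 3206. Sirt2 (60.6 ± 4.91) was above Sirt3 in 19 of 21 mice on this scale, and Sirt7 was at 18.4 ± 1.74.

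Sirt1 is the nuclear deacetylase of p53, FOXO factors and PGC-1alpha. Its level was 13.8 CPM in the lowest, 16.3 in the median and 19.3 in the highest PBS mouse, and 13.3, 17.3 and 18.5 CPM in HsTX1[R14A] mice. The groups overlapped almost fully, with 1 treated mouse below the PBS range and none above it. HsTX1[R14A] over PBS gave a log2 fold change of 0.0021 ± 0.069 (SE) with a 95% interval of -0.14 to 0.15 (edgeR, adjusted p = 0.984). As a fold, the interval ran from 0.906 to 1.11.

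Sirt6 deacetylates histone H3 at telomeres and sites of DNA repair and is linked to longevity in mice. It measured 9.49, 10.98 and 13.4 CPM in the lowest, median and highest PBS mouse and 10.1, 11.8 and 15.3 CPM in HsTX1[R14A] mice. One treated male, mouse 81, lay above all PBS mice, and 6 of 9 treated mice were above the PBS median. Its log2 fold change was 0.11 ± 0.080 (SE), with a 95% interval of -0.055 to 0.28 (edgeR, adjusted p = 0.274).

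Sirt7, a nucleolar deacetylase tied to the transcription of ribosomal RNA genes, had the smallest relative spread among PBS mice. It ran from 19.99 to 26.01 CPM with a median of 22.95 in PBS mice, and from 18.4 to 27.6 CPM with a median of 21.9 in HsTX1[R14A] mice. Both the lowest and the highest value belonged to treated mice, and the group ranges overlapped. Its log2 fold change was -0.039 ± 0.065 (SE), with a 95% interval of -0.17 to 0.097 (edgeR, adjusted p = 0.655). After removal of the length and GC trend it was -0.21 (edgeR, unadjusted p = 0.0271, adjusted p = 0.101), and without HsTX1[R14A] mouse 98 it was -0.10.

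Sirt2, the cytosolic tubulin deacetylase, lies on chromosome 7 (28766735 to 28788661 on the plus strand, GRCm38) and shares its start region with Nfkbib, an inhibitor of NF-kappaB, on the other strand. The annotated genes overlap by 778 bases, of which 42 are exonic in both. The 300-base window around the RefSeq start of Sirt2 at chr7:28766502-28766801 (GRCm38.p6, plus strand) is shown because both genes have their RefSeq start within it, in opposite directions, with capitals marking the 207 bases that also belong to the window of Nfkbib.
Sirt2: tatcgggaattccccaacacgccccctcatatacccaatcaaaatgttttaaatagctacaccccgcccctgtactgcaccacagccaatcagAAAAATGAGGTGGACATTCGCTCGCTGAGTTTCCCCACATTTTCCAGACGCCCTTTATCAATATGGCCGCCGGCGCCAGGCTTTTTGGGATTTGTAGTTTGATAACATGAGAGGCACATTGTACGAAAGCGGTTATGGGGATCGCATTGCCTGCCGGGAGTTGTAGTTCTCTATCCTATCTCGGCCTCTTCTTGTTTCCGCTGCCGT
Sirt2 measured 98.9, 111 and 128 CPM in the lowest, median and highest PBS mouse and 97.6, 112 and 131 CPM in HsTX1[R14A] mice. The group means of 111 ± 8.49 (SD, n = 12) and 111 ± 10.2 (SD, n = 9) were nearly equal, and the log2 fold change was -0.0094 ± 0.060 (SE) (edgeR, adjusted p = 0.913). The 95% interval of the fold ran from 0.911 to 1.08, which leaves larger differences in Sirt2 outside the interval. Nfkbib did not pass the test either, with a log2 fold change of -0.0061 ± 0.083 (SE) (edgeR, adjusted p = 0.96). Between mice of the same treatment and sex, Nfkbib and Sirt2 had a Pearson r of 0.392 and a Spearman rho of 0.266 (permutation, adjusted p = 0.181 and 0.296 over 6 neighbouring genes, n = 21).

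Markers of oligodendrocytes, the cells in which Sirt2 is known best, included several that fell. Of 15 oligodendrocyte marker genes, 8 fell and 1 rose after HsTX1[R14A] (60% called, against 31.6% of all genes), with a median log2 fold change of -0.29 against -0.01 for all genes. Opalin, a myelin membrane protein, fell from 20.5 ± 7.01 to 10.97 ± 2.62 CPM (SD, n = 12 and 9), with -0.99 as its log2 fold change (edgeR, adjusted p = 0.0145). Mobp, a structural protein of myelin, fell from 1229 ± 281 to 794 ± 99.2 CPM, or -0.67 on the log2 scale (edgeR, adjusted p = 0.0145). The summed level of the 15 markers ran from 4917 to 7370 CPM in PBS and from 3675 to 5464 CPM in HsTX1[R14A] mice. With the mean marker level of each mouse as a covariate, the log2 fold change of Sirt2 was 0.03 (adjusted p = 0.808). With the length slope as a covariate, or within either name form alone, edgeR called 0 genes of any kind. At an unadjusted p under 0.05 these fits left 7, 8 (longer form) and 1 (shorter form) of the 15 markers, against 9 in the fit over all mice.

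No relation between Sirt2 and the oligodendrocyte markers across mice passed the test. Pearson's r with their mean level was 0.194 and Spearman's rho 0.286 within treatment and sex (permutation, adjusted p = 0.741 and 0.564 over 49 pairs of sirtuin and marker list, n = 21), and r was 0.446 without the 2 mice farthest from the median. In PBS mice alone r was 0.621 (permutation, adjusted p = 0.23, n = 12). The 3 genes whose levels were most like Sirt2, among 13301 genes, were Zfp13 (r = 0.868), the glycolipid transfer protein gene Gltp (0.857) and Rogdi (0.855), over 21 mice centred within treatment and sex.

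Sirt3 lies on chromosome 7 (140863666 to 140882309 on the minus strand, GRCm38), overlapped at both ends by genes of the other strand. At its start, 342 exonic bases are shared with Psmd13, a subunit of the proteasome lid. At its end, 707 bases, 418 of them exonic in both, are shared with Ric8a, a chaperone of G protein alpha subunits. The upstream of its 2 RefSeq windows, at chr7:140882260-140882559 (GRCm38.p6, minus strand), is shown because both genes have their RefSeq start within it, with capitals marking the 184 bases shared with the window of Psmd13.
Sirt3: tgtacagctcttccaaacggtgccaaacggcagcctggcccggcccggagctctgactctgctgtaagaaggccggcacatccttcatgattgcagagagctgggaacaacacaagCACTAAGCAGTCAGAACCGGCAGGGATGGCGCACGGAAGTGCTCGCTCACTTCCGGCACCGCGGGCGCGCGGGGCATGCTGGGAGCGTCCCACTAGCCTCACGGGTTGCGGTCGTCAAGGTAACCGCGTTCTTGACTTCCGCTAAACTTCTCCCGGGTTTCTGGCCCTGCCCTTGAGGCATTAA
The labels and the methods of the study name different library kits, of which only the latter is directional, so reads from these overlaps may not be separable by strand. The values of Sirt3 and its neighbours are uncertain to that extent.

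Sirt3 had the lowest p of the 7 sirtuins and fell short of the threshold after adjustment. It measured 34.8, 44.2 and 76.5 CPM in the lowest, median and highest PBS mouse and 26.7, 34.2 and 53.6 CPM in HsTX1[R14A] mice. Of the 9 treated mice 5 were below the lowest PBS mouse, and 3 of 12 PBS mice were above the highest treated mouse. The means were 48.3 ± 13.01 (SD, n = 12) and 39.1 ± 10.8 CPM (SD, n = 9). The log2 fold change was -0.36 ± 0.15 (SE), with a 95% interval of -0.67 to -0.049 (edgeR, unadjusted p = 0.0254, adjusted p = 0.0676). Leaving out PBS mouse 83 (adjusted p = 0.0499), HsTX1[R14A] mouse 93 (0.0391) or mouse 92 (0.0476) in edgeR took Sirt3 past the threshold, with log2 fold changes of -0.40, -0.41 and -0.41. DESeq2 gave -0.36 (adjusted p = 0.0538), limma/voom -0.35 (adjusted p = 0.0665) and name form as a covariate -0.34 (edgeR, adjusted p = 0.118). After removal of the length and GC trend it was -0.28 (edgeR, unadjusted p = 0.0465, adjusted p = 0.141). Sample quality weights gave -0.18 (limma, adjusted p = 0.185) and 1 surrogate variable gave -0.06 (edgeR, adjusted p = 0.646).

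The 3 treated females lay within a narrow band of Sirt3, at 30.5, 33.2 and 34.2 CPM, all below the lowest PBS female at 34.8. Their length slopes, in the same order, were 0.234, 0.184 and 0.163, above the highest of the PBS females at 0.147. The 6 treated males fell into 26.7, 30.4 and 39 CPM on one side and 51.2, 53.4 and 53.6 on the other, within and below the range of 41.3 to 76.5 CPM of PBS males. In the same order, their slopes were 0.2, 0.15 and 0.0884 on one side and 0.0166, -0.142 and 0.0219 on the other. The share of all genes that separate the females in this way was not counted. The log2 fold change was -0.42 ± 0.20 (SE) in females (edgeR, adjusted p = 0.251) and -0.32 ± 0.20 (SE) in males (adjusted p = 0.307). The difference between these was -0.10 ± 0.31 (SE), with an interval of -0.75 to 0.54 (edgeR interaction term, adjusted p = 1).

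**Figure D3:**
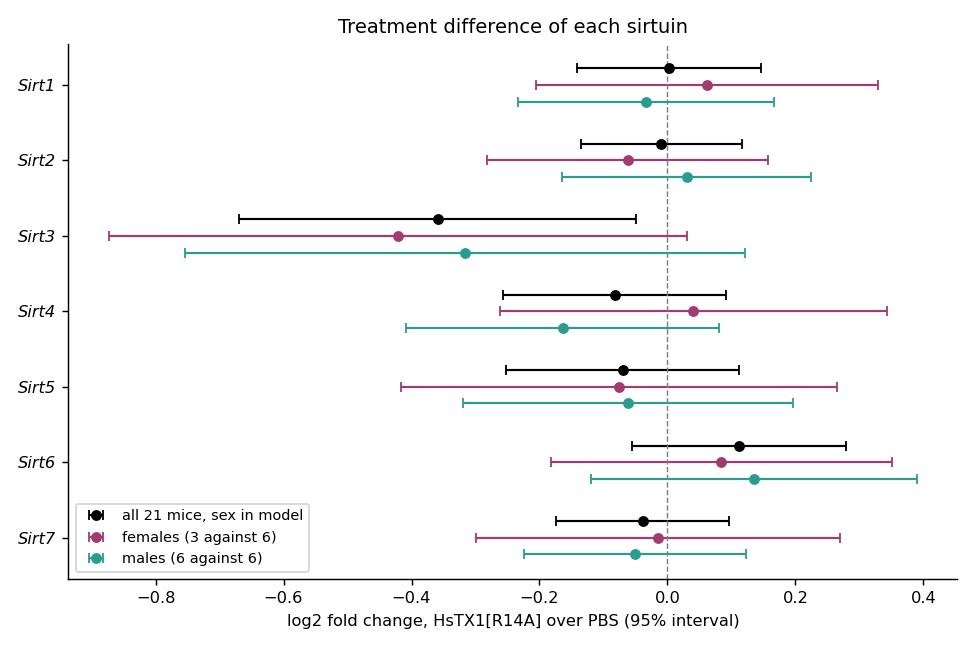
Log2 fold change for each sirtuin, HsTX1[R14A] over PBS, with its 95% interval (horizontal axis), for all 21 mice with sex in the model (black) and for females (purple) and males (green) fitted alone. The interval over all mice leaves out 0 for Sirt3 (-0.67 to -0.049) and includes 0 for the other 6 genes.

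The longest transcript of Sirt3, the length used for the slope, has 3206 bases, against a median of 3284 over all genes tested. Its coding transcripts have a median of only 1100 bases, and which of them gave the counts was not tested. Sirt3 varied with the length slope of the library. Within treatment and sex, Pearson's r was -0.903 and Spearman's rho -0.904 (permutation, p = 1e-05, the smallest that 100000 resamples can give, and 2e-05, adjusted p = 7e-05 and 0.00014 over 7 sirtuins, n = 21), and r was -0.856 without the 2 mice farthest from the median slope. The relation was also there in PBS mice alone (r = -0.944, rho = -0.902, permutation adjusted p = 7e-05 and 0.00133, n = 12), among mice with the longer name form (r = -0.969, rho = -0.954, n = 15) and, with values not centred, among the 6 with the shorter form (r = -0.918, exact permutation p = 0.0333, rho = -0.714, exact permutation p = 0.136). With the length slope as a covariate, the log2 fold change of Sirt3 was 0.08 (edgeR, adjusted p = 0.711). With the length and GC trend removed it was -0.28 (edgeR, adjusted p = 0.141). Within the longer name form alone it was -0.41 (adjusted p = 0.137) and within the shorter form alone -0.19 (adjusted p = 0.889).

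None of the other 6 sirtuins passed the same test against the length slope over the 21 mice. Sirt1 came nearest, with r = -0.56 and rho = -0.539 (permutation, adjusted p = 0.0529 and 0.062, n = 21). In PBS mice alone Sirt1 passed by rho and not by r (rho = -0.713, r = -0.604, permutation, adjusted p = 0.041 and 0.131, n = 12). The values over all 21 mice for others follow. Sirt6 had r = 0.437 and rho = 0.421 (adjusted p = 0.164 and 0.159), Sirt2 r = 0.169 and rho = 0.175 (0.539 and 0.541), and Sirt7 r = 0.0204 and rho = 0.0351 (0.922 and 0.879). Among the 6 mice with the shorter name form, r was 0.786 for Sirt6, 0.797 for Sirt7 and -0.935 for Sirt5 (exact permutation p = 0.05, 0.0194 and 0.00694, not adjusted). Among the 15 with the longer form it was 0.439, 0.0453 and -0.2 for these genes.

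**Figure D4:**
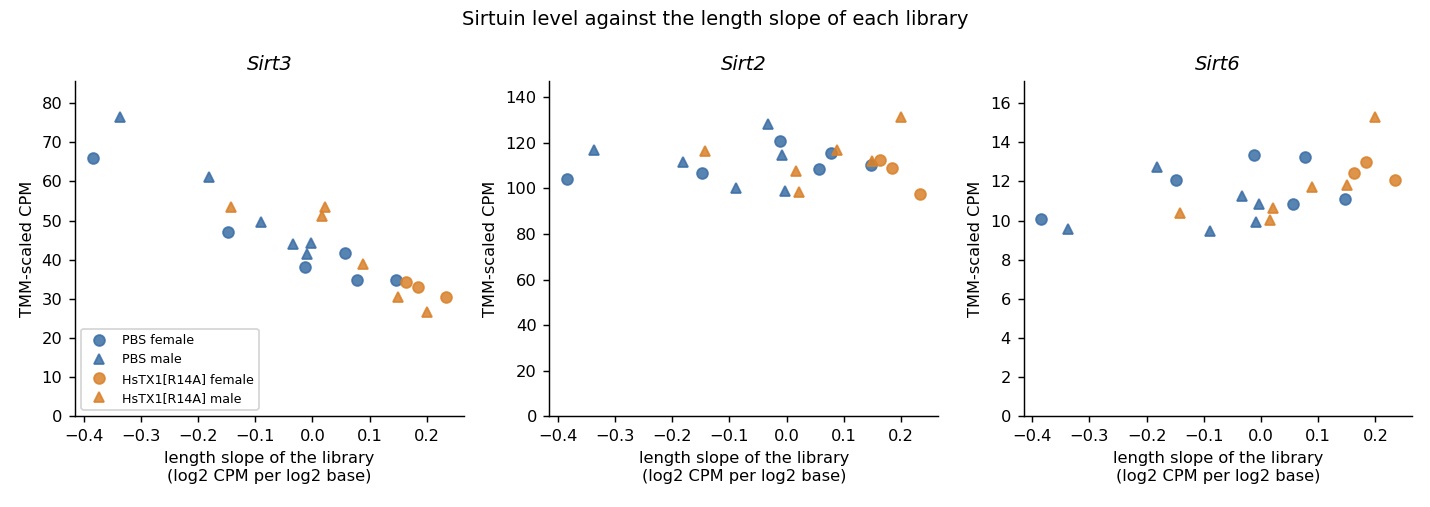
Level of Sirt3, Sirt2 and Sirt6 (TMM-scaled CPM, vertical axes from 0) against the length slope of each library (horizontal axis), with 1 point per mouse, colour for treatment and shape for sex. Sirt3 falls from 76.5 CPM in a library with a slope of -0.337 to 26.7 CPM at 0.2, while Sirt2 has r = 0.169 with the slope.

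Sirt3 also varied with its divergent neighbour, though less closely than with the genes most like it, given below. The share of all genes that reach such an r with Sirt3 was not counted. Psmd13 and Sirt3 had r = 0.837 and rho = 0.86 within treatment and sex (permutation, adjusted p = 0.00174 and 0.00078 over 6 neighbouring genes, n = 21), and r = 0.743 without the 2 mice farthest from the median. The value of r was 0.934 among the 15 mice with the longer name form (permutation p = 3e-05) and 0.967 among the 6 with the shorter form (exact permutation p = 0.00417). Ric8a, at the other end, had r = 0.585 and rho = 0.514 (adjusted p = 0.037 and 0.0654). Psmd13 itself had r = -0.675 and rho = -0.675 with the length slope (permutation, adjusted p = 0.00706 and 0.00578 over 6 neighbouring genes). Neither neighbour passed the test for treatment, with log2 fold changes of -0.06 ± 0.10 for Psmd13 (edgeR, adjusted p = 0.657) and -0.02 ± 0.057 for Ric8a (adjusted p = 0.756).

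The 3 genes most like Sirt3 over the 21 mice, looked up after its values were seen, were Tmsb4x (r = 0.989), Slc25a4 (0.983) and Mpc2 (0.982). Tmsb4x encodes an actin-binding peptide, Slc25a4 the mitochondrial ADP/ATP carrier and Mpc2 a subunit of the mitochondrial pyruvate carrier. Tmsb4x (log2 fold change -0.55, edgeR, adjusted p = 0.0275) and Slc25a4 (-0.22, adjusted p = 0.0388) were called lower after HsTX1[R14A], and Mpc2 (-0.31, adjusted p = 0.123) was not. Among the marker lists, Sirt3 varied against neuron (r = -0.727, rho = -0.647) and endothelium markers (-0.694, -0.666) and with microglia markers (0.7, 0.649), with permutation adjusted p for r of 0.0146 each over 49 pairs. The adjusted p for rho were 0.0407, 0.0407 and 0.0597. In PBS mice alone these had r = -0.75, -0.725 and 0.687, with permutation adjusted p of 0.11, 0.121 and 0.168 (n = 12). Sirt6 also varied against microglia markers, with r = -0.709 and rho = -0.71 (permutation, adjusted p = 0.0146 and 0.0372, n = 21), r = -0.737 without the 2 farthest mice and r = -0.766 in PBS mice alone (adjusted p = 0.11, n = 12). Over the 21 mice these 4 of the 49 pairs passed by r. Whether these share a source with the length slope was not tested.

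Sirt4 is the mitochondrial lipoamidase and ADP-ribosyltransferase known for limiting glutamate dehydrogenase. It measured 7.17, 10.2 and 11.3 CPM in the lowest, median and highest PBS mouse and 7.82, 9.2 and 11.7 CPM in HsTX1[R14A] mice. Only 1 of 9 treated mice was above the PBS median, yet that mouse was the highest of all 21. Treatment gave a log2 fold change of -0.083 ± 0.084 (SE), with a 95% interval of -0.26 to 0.092 (edgeR, adjusted p = 0.447). The 2 PBS mice with the shorter name form were the lowest of the 12, at 7.17 and 8.3 CPM, against 10.3 ± 0.725 CPM (SD, n = 10) in the others. Within the longer form alone the log2 fold change was -0.13 (adjusted p = 0.188) and within the shorter form alone 0.31 (adjusted p = 0.856).

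Sirt5, the mitochondrial enzyme that removes succinyl, malonyl and glutaryl groups, was the lowest sirtuin. It measured 4.49, 5.31 and 6.84 CPM in the lowest, median and highest PBS mouse and 3.87, 5.38 and 5.72 CPM in HsTX1[R14A] mice. Of the treated mice 2 lay below the PBS range, and 5 of 9 were above the PBS median. HsTX1[R14A] gave a log2 fold change of -0.07 ± 0.088 (SE), with a 95% interval of -0.25 to 0.11 (edgeR, adjusted p = 0.542).

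Within name forms, the log2 fold changes of the genes not yet given were -0.05 in the longer and 0.20 in the shorter form for Sirt1, -0.00077 and 0.05 for Sirt2, 0.006 and -0.14 for Sirt5, 0.09 and 0.15 for Sirt6, and -0.08 and 0.13 for Sirt7. None passed the test, with adjusted p of 0.377 or more in edgeR. The sign differed between the forms for Sirt1, Sirt2, Sirt5, Sirt7 and, as given above, Sirt4, a difference that was not tested.

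Apart from Sirt3, each sirtuin had a smaller relative spread between mice than the median gene. That median takes in genes of all levels, and genes of like level were not compared. The coefficient of variation in PBS mice was 7.33% for Sirt7, 7.63% for Sirt2, 9.35% for Sirt1, 11.7% for Sirt5, 12.3% for Sirt6 and 12.4% for Sirt4, all under the median of 20.7% over all genes. Sirt3, at 27%, was above it, with 66.7% of genes below it. In HsTX1[R14A] mice the values ran from 9.14% for Sirt2 to 13.4% for Sirt6, against a median of 18.3%, and Sirt3 was at 27.5%.

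Pairs of sirtuins showed no relation that passed adjustment by Pearson's r over the 21 pairs. The largest r was that of Sirt4 and Sirt7, at 0.608 with a rho of 0.696 (permutation, adjusted p = 0.0977 and 0.0468, n = 21), and r was 0.633 without the 2 mice farthest from the median. In PBS mice alone, Sirt1 and Sirt5 (r = 0.845, rho = 0.832, permutation, adjusted p = 0.0178 and 0.0131, n = 12) and Sirt2 and Sirt7 (r = 0.793, rho = 0.846, adjusted p = 0.0256 and 0.0131) passed, with r of 0.644 and 0.84 without the 2 farthest mice. Over all 21 mice these had r = 0.525 (adjusted p = 0.0977) and 0.43 (0.174). Among the 15 mice with the longer name form r was 0.477 for Sirt4 with Sirt7, 0.768 for Sirt1 with Sirt5 and 0.856 for Sirt2 with Sirt7, and among the 6 with the shorter form it was 0.768, 0.34 and -0.052.

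Between the sexes, none of the 7 sirtuins was called, and over all genes the share called was 0.0552% (9 of 16303), with 0.0245% higher and 0.0307% lower in females. Sirt3 was lower in females, at 40.04 ± 10.9 CPM (SD, n = 9) against 47.6 ± 13.4 (SD, n = 12) in males, a log2 fold change of -0.31 ± 0.15 (SE) (edgeR, unadjusted p = 0.0469, adjusted p = 0.446). With the length slope as a covariate it was -0.09 (adjusted p = 0.834). Sirt6 was higher in females, at 12.02 ± 1.15 against 11.1 ± 1.64 CPM, a log2 fold change of 0.13 ± 0.080 (SE) (edgeR, adjusted p = 0.448), and 8 of 9 females were above the male median. The other 5 genes had log2 fold changes between -0.082 and 0.082. The treatment by sex interaction was called for no sirtuin and 0 of 16303 genes in edgeR, with 0 sirtuins and 270 genes at an unadjusted p under 0.05.

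Of the 6 neighbouring genes tested, only Dnajc12 and Mafg passed the treatment test, which called 31.6% of all genes. Dnajc12, a heat shock protein 40 family gene whose start lies 739 bases from the outermost GENCODE start of Sirt1, fell from 16.9 ± 6.21 to 12.3 ± 2.69 CPM (SD, n = 12 and 9; log2 fold change -0.48, edgeR, adjusted p = 0.0488). Mafg, a small Maf transcription factor that overlaps Sirt7 by 124 bases on the same strand, rose from 63.8 ± 15.01 to 78.99 ± 10.9 CPM (log2 fold change 0.35, edgeR, adjusted p = 0.0302). Both varied with the length slope, Dnajc12 with r = -0.911 (rho = -0.849) and Mafg with r = 0.88 (rho = 0.721; permutation, adjusted p for r = 6e-05 and 0.0003). Ankrd24, whose start lies 743 bases from that of Sirt6, was not called (log2 fold change 0.14, adjusted p = 0.273) but varied with Sirt6 (r = 0.722, rho = 0.704, permutation, adjusted p = 0.00204 and 0.00213), and r was 0.541 without the 2 farthest mice. Ankrd24 also varied with the length slope (r = 0.531, rho = 0.614, permutation, adjusted p = 0.015 and 0.00578). Dnajc12 and Sirt1 had r = 0.534 and rho = 0.413 (permutation, adjusted p = 0.037 and 0.121), and r = 0.182 without the 2 farthest mice. Mafg and Sirt7 had r = 0.211 and rho = 0.338 (permutation, adjusted p = 0.304 and 0.167).

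Short motifs were looked up in the 9 RefSeq start windows of the 7 genes, on both strands. The GC box GGGCGG was in 6 windows, at least 1 of each of Sirt1, Sirt2, Sirt3, Sirt5, Sirt6 and Sirt7, and in 35.7% of all 32851 windows. The E-box CACGTG was in the window of Sirt1 alone and in 7.15% of all windows, and CCAAT was in 3 windows (Sirt2, Sirt3 and Sirt5) and in 37.4% of all. These matches are descriptions of the letters in these windows.

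Genes that supply NAD+ were called at a share near that of all genes, and calls went in both directions in each. Of 14 genes of NAD synthesis and salvage tested, 4 fell and 1 rose (35.7% called, against 31.6% of all genes), with a median log2 fold change of -0.24. The number called was 6 in DESeq2 and 2 with the length and GC trend removed. It was 1 with name form or with the surrogate variable as a covariate, and 0 with the length slope. Nmnat2, the NAD-synthesising enzyme of axons, rose from 113 ± 20.4 to 144 ± 14.9 CPM (SD, n = 12 and 9; log2 fold change 0.38, edgeR, adjusted p = 0.017). Nadk2, the mitochondrial NAD kinase, fell from 60.7 ± 11.7 to 47.3 ± 8.46 CPM (log2 fold change -0.39, adjusted p = 0.0214).

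Other enzymes that use NAD+ included 3 that rose and none that fell among 16 tested (18.8% called, against 31.6% of all genes, median log2 fold change 0.01). Parp1, the main poly(ADP-ribose) polymerase of DNA repair, rose from 39.6 ± 6.39 to 48.9 ± 4.26 CPM (log2 fold change 0.32, edgeR, adjusted p = 0.0181), and the tankyrase Tnks from 32.3 ± 11.7 to 51.5 ± 13.5 CPM (0.72, adjusted p = 0.0189). Of 10 genes known to regulate Sirt1, 4 rose and none fell (40% called, median 0.08). This count was 0 without PBS mouse 90, and also with name form, the length slope, the surrogate variable or the oligodendrocyte score as a covariate and within either name form. The 4 included Usp22, a deubiquitinase that stabilises the Sirt1 protein (log2 fold change 0.36, edgeR, adjusted p = 0.0267), and Prkaa2, a catalytic subunit of AMP-activated kinase (0.26, adjusted p = 0.0363).

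In the fit reported, genes of sirtuin substrates were called at shares below the 31.6% of all genes, a difference that was not tested. Counts moved with single mice. Without HsTX1[R14A] mouse 93 the nuclear and cytosolic list held 13 called of 28, against 6615 of 16303 genes. Without PBS mouse 90 it held 2, against 2288. Of 28 nuclear and cytosolic substrates, 7 rose and none fell (25% called, median log2 fold change 0.20). Per2, a repressor of the circadian clock, rose from 19.3 ± 8.24 to 34.6 ± 13.8 CPM (log2 fold change 0.98, edgeR, adjusted p = 0.0151), and the acetyltransferase Ep300 from 42.7 ± 12.7 to 64.3 ± 19.7 CPM (0.65, adjusted p = 0.0186). Of 34 mitochondrial substrates, 5 fell and 2 rose (20.6% called, median -0.04). Idh2, the mitochondrial isocitrate dehydrogenase that Sirt3 deacetylates, fell from 34.7 ± 2.24 to 28.97 ± 3.05 CPM (log2 fold change -0.27, edgeR, adjusted p = 0.0151), and the acyl-CoA dehydrogenase Acadl from 32.3 ± 2.76 to 28.2 ± 1.90 CPM (-0.21, adjusted p = 0.0188).

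The classical histone deacetylases, which use zinc and not NAD+, had 1 gene higher and 1 lower of 11 (18.2% called, against 31.6% of all genes, median log2 fold change 0.14). Hdac4 rose from 34.7 ± 8.02 to 48.5 ± 8.72 CPM (log2 fold change 0.52, edgeR, adjusted p = 0.0153), and Hdac3 fell from 68.1 ± 3.96 to 60.3 ± 3.25 CPM (-0.17, adjusted p = 0.0191). Of 18 senescence genes, 4 fell and none rose (22.2% called, also below the 31.6% of all genes, median -0.10). The chromatin proteins Hmgb2 (log2 fold change -0.89, edgeR, adjusted p = 0.0151) and Hmgb1 (-0.46, adjusted p = 0.0151) were the members with the smallest p.

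**Figure D5:**
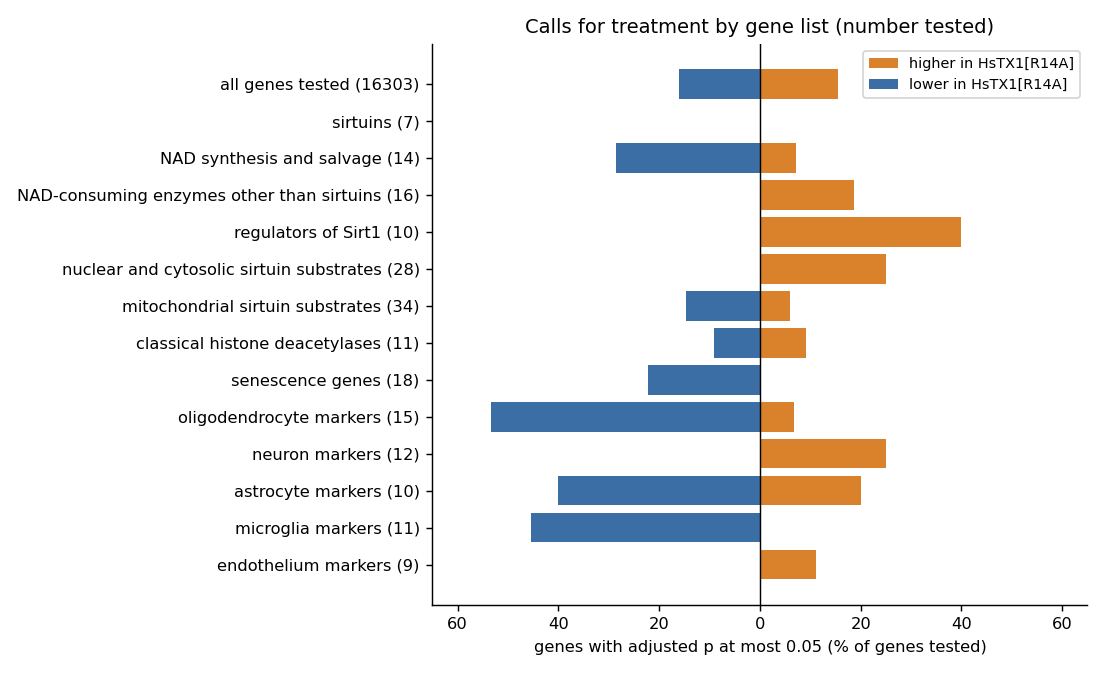
Share of genes called higher (orange, right) or lower (blue, left) after HsTX1[R14A], as a percentage of the genes tested, for all genes, the sirtuins, the 7 pathway lists and markers of 5 cell types, with the number of genes tested in brackets. No sirtuin is called, against 31.6% of all genes.

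Over the 7 pathway lists 32 genes were called in sum. The share called in the single lists ran from 18.2% to 40%, against 31.6% of all genes. The sum fell to 13 without PBS mouse 90 and rose to 50 without HsTX1[R14A] mouse 93. The count over all genes, 5144, fell to 2288 and rose to 6615 without the same mice. Without mouse 90, the lists of NAD synthesis, nuclear and cytosolic substrates, mitochondrial substrates and senescence genes held 2 called genes each and the regulators of Sirt1 held 0. Without mouse 93, the substrate lists held 13 and 12. The lists also differed in length. Median longest transcripts had 4434 bases for regulators of Sirt1, 3802 for nuclear and cytosolic substrates and 3647 for NAD-using enzymes. They had 3585 for classical histone deacetylases, 2874 for mitochondrial substrates, 2691.5 for senescence genes and 2649 for NAD synthesis and salvage. The median over all genes was 3284. Whether the direction of the calls goes with these lengths was not tested. With the length slope as a covariate, or within either name form alone, 0 genes of these lists were called in edgeR. At an unadjusted p under 0.05 these counts were 14 with the covariate, 40 in the longer name form and 4 in the shorter.

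Markers of other cell types were called at shares on either side of the 31.6% of all genes. Of 12 neuron markers 3 rose and none fell, a share of 25% (Syn1, log2 fold change 0.99, edgeR, adjusted p = 0.0282; Syt1, 0.31, adjusted p = 0.0349). Of 11 microglia markers 5 fell and none rose, a share of 45.5% (C1qb, -0.43, and P2ry12, -0.65, both adjusted p = 0.0151), and their summed level ran from 439 to 642 CPM in PBS and from 370 to 553 CPM in HsTX1[R14A] mice. Of 10 astrocyte markers 4 fell and 2 rose, a share of 60%, with S100b (-0.72, adjusted p = 0.0152) and Gfap (-0.59, adjusted p = 0.0312) lower. Of 9 endothelial markers 1 rose, a share of 11.1% (Flt1, 0.64, adjusted p = 0.0191) and Tie1 was not called (0.47, adjusted p = 0.0658). None of 8 choroid plexus markers (Otx2, -0.67, adjusted p = 0.0765; Kcne2, -0.78, adjusted p = 0.151) and none of 5 erythrocyte genes (Hbb-bs, 0.63, adjusted p = 0.276; Hbb-bt, 0.54, adjusted p = 0.35) were called. The part of these markers in the values of the pathway lists was not tested.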

How the data were processed

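Whole-brain RNA of 21 SAMP8 mice was sequenced with 1 library per mouse. The authors aligned reads to GRCm38 with STAR and deposited expected counts from Salmon for 16318 genes, of which 90.496% were at most 0.01 from a whole number. The gene annotation and filter behind the table are not given in the sources used here. The table also holds the authors' fold changes, p-values and FDR, which were not used, nor were 53 per-sample columns (16 of counts, 37 of CPM) of other libraries or other units.

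Counts were rounded, filtered with filterByExpr (16303 genes), scaled (TMM) and tested in R 4.3.3 by edgeR 4.0.16. The model held treatment and sex, and the threshold on the adjusted p was 0.05. A prior count of 2 was added for log2 CPM. Totals ran from 14917174 to 47613792 counts, and the spread between mice sets the precision. Transcript lengths came from GENCODE M21 (GRCm38) for 99.5% of genes tested, and start windows from RefSeq (GRCm38.p6), with 7 of 7 sirtuins matched. Correlations used log2 CPM centred within treatment and sex, with 100000 permutations, two-sided. The scripts were tested on simulated data.

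The genes named were all 7 sirtuins, their neighbouring genes, the 2 genes of each list with the smallest p and the 3 genes most like Sirt2. The 3 genes most like Sirt3 were added after its values were seen. The members and lists were chosen with earlier results of these data known, and correlations with marker lists and neighbouring genes were added after the data were seen. Alternatives were limma 3.58.1 with voom, DESeq2 1.42.0, RLE scaling, other filters, sample quality weights, 1 surrogate variable (sva 3.50.0), other covariates, fits within each name form and fits without each mouse in turn.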

Additional observations from a re-analysis of the deposited data

Results flagged for a closer look

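In groups of 4 to 10 mice, a mouse was singled out where its gap to the nearest other mouse, divided by the range of the group, was above Dixon's 95% critical value. Of 28 groups of sirtuin values tested, 3 held such a mouse, and chance gives about 1 in 20. Sirt4 in PBS male 102 was 7.17 CPM, with the nearest other male at 9.65 and the highest at 11.01 (ratio 0.645, n = 6). HsTX1[R14A] male 81 was lowest for Sirt5, at 4.03 CPM with the nearest male at 5.23 (ratio 0.712, n = 6). The same mouse was highest for Sirt6, at 15.3 CPM with the nearest male at 11.8 (ratio 0.667, n = 6). Both mice have the shorter name form, and mouse 81 had a length slope of 0.2, the highest of the treated males. Without mouse 81 the log2 fold change of Sirt6 was 0.06.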

How the results depend on the processing

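No paired analysis was possible because mouse numbers are not shared between the groups. No sirtuin was called for treatment under the 14 alternatives other than leaving out mice, among them limma/voom, DESeq2, another scaling and other filters. The fits with the length slope as a covariate or within either name form called 0 genes of any kind. The lack of a sirtuin call in those fits therefore says nothing about the sirtuins in particular. With one mouse left out at a time, the sirtuins called numbered 0 to 1, the genes called 2288 to 6615 and the called genes of the 7 pathway lists 13 to 50. The log2 fold change of Sirt1 then ran from -0.043 to 0.036, that of Sirt2 from -0.038 to 0.017, that of Sirt3 from -0.41 to -0.28, that of Sirt4 from -0.14 (without HsTX1[R14A] mouse 98) to -0.06 (without PBS mouse 101), that of Sirt5 from -0.11 (without HsTX1[R14A] mouse 71) to -0.03 (without PBS mouse 83), that of Sirt6 from 0.06 (without HsTX1[R14A] mouse 81) to 0.14 (without PBS mouse 101) and that of Sirt7 from -0.10 (without HsTX1[R14A] mouse 98) to -0.01 (without mouse 71). The cause of these moves was not tested.

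The genes called for treatment, 5144 in the fit reported, were 2984 without the sex term, 1999 with name form as a covariate, 1104 with 1 surrogate variable, 2499 with the length and GC trend removed and 2810 with the oligodendrocyte score as a covariate. They were 0 with the length slope as a covariate (1865 at an unadjusted p under 0.05 in edgeR) and 0 within the longer and within the shorter name form (5796 and 545). In the pathway lists the counts were 12 with name form, 9 with the surrogate variable, 20 with the trend removed, 18 with the oligodendrocyte score and 0 with the length slope or within either form, where fewer mice entered the fit.

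Treatment changes that turned in sign, none of them called, were -0.0051 for Sirt1 with at least 10 counts in every mouse, 0.015 for Sirt2 with name form as a covariate, 0.084 for Sirt3 and 0.0086 for Sirt5 with the length slope, and 0.031 for Sirt2, 0.031 for Sirt4 and 0.066 for Sirt5 with the trend removed. They were also -0.052 for Sirt1 and 0.026 for Sirt2 with the oligodendrocyte score, -0.052 for Sirt1 and 0.0060 for Sirt5 in the longer form, and 0.053 for Sirt2, 0.31 for Sirt4 and 0.13 for Sirt7 in the shorter form. With the trend removed, the treatment change of Sirt7 grew to -0.21 (adjusted p = 0.101) and its sex difference was -0.023. Sample quality weights called 2 sirtuins between the sexes, Sirt3 (-0.35, limma unadjusted p = 0.00333, adjusted p = 0.0386) and Sirt6 (0.19, 0.00629 and 0.0461). The share of all genes called between the sexes in that fit was not counted, and the share given above comes from the edgeR fit. Whether these 2 genes stand out from all genes there is therefore not known.

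Per kilobase of the median coding transcript the levels were 4.31 for Sirt1, 60.6 for Sirt2, 40.3 for Sirt3, 3.38 for Sirt5, 6.91 for Sirt6 and 18.4 for Sirt7. Correlations that turned in sign, none past the threshold, were -0.0326 for Sirt1 with Sirt7 in PBS mice and, without the 2 mice farthest from the median, 0.104 for Sirt2 with Sirt5 and -0.0541 for Sirt4 with Sirt5. Depth limits Sirt5 most, with 68 counts in HsTX1[R14A] mouse 81.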
